A study of Mus musculus with 24 samples.

Results

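Messenger RNA of 7 transcription factor genes known for the identity of the kidney collecting duct was followed in mpkCCD cells, an immortalised line from mouse cortical collecting duct, after dDAVP, a synthetic analogue of vasopressin. The genes were Gata2, Gata3, Tfcp2l1, Grhl2, Pax2, Pax8 and Lhx1, 7 of the 54432 genes in the deposited tables. They were chosen by name, by a rule that itself uses no measured value, but with earlier results of these data known. The groups were dDAVP for 3, 6, 12 or 24 h and vehicle for 3, 6, 12 or 24 h, with 3 libraries in each of the 8 groups and 24 in all. All groups shared the strain (C57BL/6), a wild type genotype, growth on a permeable filter for 6 days and then minimal medium for 24 h, and both dDAVP and vehicle were given from the basolateral side. All libraries came from this 1 cell line, and nothing in the labels says that the 3 libraries of a group came from separate cultures. A p-value here sets a difference against the variation between these libraries. That variation may be technical only, so a p-value may not hold for new cultures.

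The collecting duct grows from the ureteric bud, itself an outgrowth of the nephric duct. In the mouse, PAX2 and PAX8, which bind DNA through a paired domain, and LHX1, a LIM-homeodomain factor, are needed to form the nephric duct, and the zinc-finger factor GATA3 acts below PAX2 and PAX8 there. In the mature duct GATA2 is known from mice to keep up the water channel gene Aqp2 and the vasopressin receptor gene Avpr2, TFCP2L1 of the CP2 family patterns principal and intercalated cells together with Notch signalling, and its relative GRHL2 of the grainyhead family keeps up junction genes of the epithelium. Vasopressin acts on principal cells through the V2 receptor (Avpr2), cAMP and CREB-type factors that bind the cAMP response element, CRE.

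The 7 genes lie on 6 chromosomes of GRCm38: Gata3 at chr2:9857078-9890034 and Pax8 at chr2:24420560-24475599, both on the minus strand, Tfcp2l1 at chr1:118627945-118685168, Gata2 at chr6:88193891-88207032, Grhl2 at chr15:37233036-37363569 and Pax2 at chr19:44756045-44837871 on the plus strand, and Lhx1 at chr11:84518284-84525535 on the minus strand. All are protein-coding, and Aqp2, on the same chromosome as Grhl2, lies at chr15:99579055-99584547. RefSeq windows of 300 bases, from 250 before to 50 after a start site (GRCm38.p6), were held for 6 of the 7 genes and for Aqp2 and Avpr2, with 2 start sites for Gata2 and 3 for Pax2. They were searched on both strands for the full CRE TGACGTCA, the shorter CRE core TGACG within it, the GATA letters AGATAA, the grainyhead letters AACCNGTT, the CP2 letters (CCNG, any 6 bases and CCNG again) and the paired-domain core GCGTGAC. Of 32851 windows, 1.79% held the full CRE, 20.81% the CRE core, 11.18% the GATA letters, 2.09% the grainyhead letters, 29.49% the CP2 letters and 2.09% the paired-domain core. Shown are the window of Aqp2, as the strongly responding gene of the duct, those of Gata3 and Pax2 (the second start site), whose RNA differed between dDAVP and vehicle at 6 h, and that of Tfcp2l1, which holds a CRE core. Each is written 5′ to 3′ on the strand of the gene, and capitals mark the matches.
Aqp2, chr15:99578806-99579105, plus strand: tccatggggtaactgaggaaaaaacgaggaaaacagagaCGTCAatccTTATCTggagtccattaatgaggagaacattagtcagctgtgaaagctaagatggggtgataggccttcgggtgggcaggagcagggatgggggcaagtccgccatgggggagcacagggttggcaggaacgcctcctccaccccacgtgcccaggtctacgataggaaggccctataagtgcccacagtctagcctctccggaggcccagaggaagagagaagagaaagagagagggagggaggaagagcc
Gata3, chr2:9878551-9878850, minus strand: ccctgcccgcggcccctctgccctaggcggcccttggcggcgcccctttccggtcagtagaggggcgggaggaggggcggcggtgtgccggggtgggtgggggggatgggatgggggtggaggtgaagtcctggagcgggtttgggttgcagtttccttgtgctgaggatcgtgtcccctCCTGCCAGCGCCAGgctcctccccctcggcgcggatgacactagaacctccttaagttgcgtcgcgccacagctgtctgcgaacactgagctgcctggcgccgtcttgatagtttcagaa
Pax2, chr19:44755502-44755801, plus strand: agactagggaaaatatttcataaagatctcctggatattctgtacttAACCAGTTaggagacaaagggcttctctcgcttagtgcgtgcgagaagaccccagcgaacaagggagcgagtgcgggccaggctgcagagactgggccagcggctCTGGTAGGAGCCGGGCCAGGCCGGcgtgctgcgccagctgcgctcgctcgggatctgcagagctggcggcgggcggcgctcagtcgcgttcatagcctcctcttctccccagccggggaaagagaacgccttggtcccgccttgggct
Tfcp2l1, chr1:118627695-118627994, plus strand: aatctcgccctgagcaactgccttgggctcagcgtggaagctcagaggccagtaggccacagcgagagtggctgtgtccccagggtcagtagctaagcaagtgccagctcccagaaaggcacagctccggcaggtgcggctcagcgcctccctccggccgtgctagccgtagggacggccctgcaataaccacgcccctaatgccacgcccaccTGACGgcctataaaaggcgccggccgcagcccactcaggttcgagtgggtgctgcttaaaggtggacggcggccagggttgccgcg
In Aqp2 the capitals are the CRE core read on the minus strand, beginning 211 bases before the start, and the GATA letters, also on the minus strand, beginning 202 bases before it. Gata3 has the CP2 letters 70 bases before the start. Pax2 has the grainyhead letters 203 bases before its second start and overlapping CP2 matches that begin 98 and 88 bases before it. Tfcp2l1 has the CRE core 36 bases before its start, and Lhx1, not shown, has it 50 bases before. The window of Pax8 has the CP2 letters 8 bases before its start and across it. Neither window of Gata2 held any of the 6, and no window of the 6 genes held the full CRE, the GATA letters or the paired-domain core. These are matches of letters only, and whether a factor binds there was not measured.

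Libraries held 17.25 to 27.64 M estimated counts (M for mega, as in counts per M). Principal cell markers summed to 105 to 177 TPM (transcripts per M, a level per transcript length) in dDAVP libraries and 61.7 to 88.9 TPM in vehicle libraries, with 8 of 11 at 1 TPM or more on average. That difference rested on Aqp2, and the other 10 summed to 45.6 to 85.7 TPM in dDAVP libraries and 58.9 to 84.9 TPM in vehicle libraries. One of them, Scnn1g (the gamma subunit of the sodium channel ENaC), was lower in dDAVP at 3 h (log2 −0.96, adjusted p = 0.0109) and at 6 h (−0.71, adjusted p = 0.0183). Of 12 intercalated cell markers 4 reached that level, with sums of 76.3 to 105 TPM in dDAVP and 85.4 to 107 TPM in vehicle. Car2 made up most of that sum, at 75.6 TPM on average (65.4 to 85.6 TPM), followed by Rhcg (7.37 TPM), Atp6v1b1 (4.88 TPM) and Dmrt2 (1.39 TPM). Foxi1 (0.0783 TPM), Slc4a1 (0.543 TPM) and Slc26a4 (0.514 TPM) were among those below 1 TPM on average. The 6 other marker lists (proximal tubule, thick limb and distal tubule, podocyte, fibroblast, endothelial, immune) summed to at most 12.3 TPM in a dDAVP library and 13.2 TPM in a vehicle library, and no marker was at 0 in all libraries. Aqp2 was higher in all dDAVP libraries, at 110 to 235 CPM (counts per M), than in the vehicle libraries, at 4.13 to 8.12 CPM. The 1457 protein-coding genes of olfactory and vomeronasal receptors, proteins of the nose, held a share of the counts that averaged 0.373%, 0.196%, 0.334% and 0.201% in dDAVP at 3, 6, 12 and 24 h, and 0.629%, 0.526%, 0.476% and 0.226% in vehicle. The treatments overlapped in this share at 3, 12 and 24 h. At 6 h they did not, with 0.135% to 0.276% in dDAVP libraries and 0.443% to 0.581% in vehicle libraries. The CPM of most of the genes followed here moved with this share, so results are also given from a model with its log2 value as a covariate, called the share-adjusted model below. At 6 h, where the shares do not overlap, that model compares the treatments through a slope fitted over all groups. A missing call at 6 h in that model therefore does not exclude a difference between the treatments.

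The 7 genes fell into 3 tiers by TPM, which allows genes to be compared within a library. Pax8 averaged 52.1 ± 5.61 TPM (SD over 24 libraries, range 41.0 to 61.4) and Gata3 48.5 ± 3.86 TPM (39.1 to 54.7), above 94.1% and 93.7% of 21809 protein-coding genes. Tfcp2l1 averaged 11.1 ± 1.42 TPM, Grhl2 10.4 ± 1.38 TPM and Pax2 8.39 ± 1.05 TPM, above 76.7%, 75.7% and 72.2% of them. Gata2, at 0.411 ± 0.247 TPM, and Lhx1, at 0.311 ± 0.234 TPM, were below most coding genes, with 37.4% and 33.2% of them lower still. The tiers did not overlap: Gata3 was above Tfcp2l1 in 24 of 24 libraries, and Pax2 above Gata2 in 24 of 24. Within tiers the order was less firm. Pax8 was above Gata3 in 19 of 24 libraries, Tfcp2l1 above Grhl2 in 19, Grhl2 above Pax2 in 23 and Gata2 above Lhx1 in 19, and the ranges of each of these pairs overlapped.

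**Figure D1:**
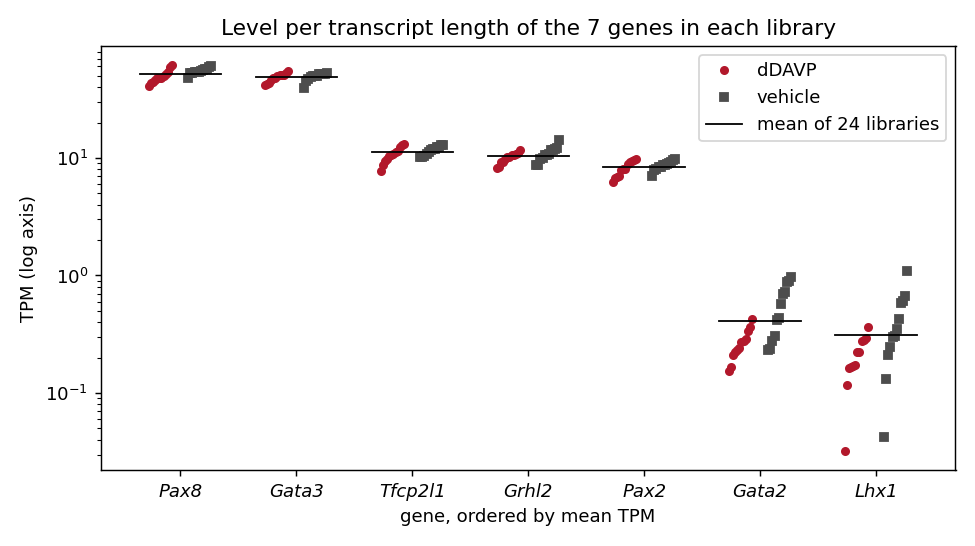
TPM of each gene (log axis) in each of 24 libraries, with dDAVP as red circles left of vehicle as grey squares and a line at the mean of all 24. Pax8 and Gata3 sit near 50 TPM, Tfcp2l1, Grhl2 and Pax2 near 10 TPM, and Gata2 and Lhx1 mostly below 1 TPM.

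Counts behind these levels were ample for the upper tiers and small for the lowest. Pax8 had 3342.6 to 5056.7 estimated counts per library and Gata3 3257.0 to 6011.5, against 17 to 61 for Gata2 and 4 to 51 for Lhx1. The TPM of Gata2 ranged from 0.155 to 0.426 in dDAVP libraries and from 0.234 to 0.98 in vehicle libraries, while its CPM was not called as different at any time. On TPM scales it was called as lower at 6 h (limma, −0.47 with adjusted p = 0.0488 on log2(TPM + 1), −1.22 with adjusted p = 0.0424 on log2(TPM + 0.1)). The effective transcript length behind a TPM value (count over TPM, relative to the median gene of the library) differed between libraries by a factor of up to 2.88 for Gata2 and 3.27 for Lhx1, against at most 1.23 for the other members and 1.15 for the median gene. Only 2.4% of genes passed a factor of 2. For Gata2 this length was 1.14 to 1.54 in all dDAVP libraries and 0.54 to 1.55 in vehicle libraries, where 5 of 12 were at 0.75 or below. TPM differences of Gata2 and Lhx1 between libraries therefore depend on the assigned transcript length. CPM, used below, applies no length. If the change in length were real, equal CPM would not mean equal numbers of transcripts. Whether it was real was not tested. A second point bears on TPM between libraries: Gm24245 held 37.4% to 51.7% of the TPM of a library and 0.269% to 0.473% of its counts.

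Differences between dDAVP and vehicle were small in these genes beside that of Aqp2, and those called at a single time were at 6 h. Gata3 and Pax2 were called as higher at 6 h, 2 of 7 genes, where 38.1% of all 29743 tested genes were called (edgeR quasi-likelihood F test, p adjusted by Benjamini-Hochberg over all tested genes, threshold 0.05), 20.9% as higher. No member was called at 3 h, 12 h or 24 h, where 0.484%, 0.0773% and 0.0841% of all genes were. In these 3 comparisons 2, 0 and 0 members had an unadjusted p below 0.05 (Gata3 and Pax2 at 3 h), beside 4007, 1130 and 947 of all 29743 tested genes. DESeq2 called 0 members at each. For Pax2 the unadjusted edgeR p was 0.00455 at 3 h and 0.00595 at 6 h, and for Gata3 0.00193 and 0.000989. The adjusted threshold is looser at 6 h, where more genes pass. A call at 6 h alone therefore does not set that time apart from 3 h. On the log2(TPM + 1) scale, where Gm24245 takes part in every value, the signs at 6 h were the other way, at −0.07 for Gata3 and −0.09 for Pax2, and limma called Gata2, Pax8 and Grhl2 as lower there. The mean effect over the 4 times was called for Gata3 and Grhl2, both higher, against 33.1% of all genes (16.7% as higher), and dependence of the effect on time for none of the 7, against 0.343% of all genes (2 members, Pax2 and Gata3, had an unadjusted p below 0.05, and DESeq2 called 0). For that dependence 2212 of all 29743 tested genes had an unadjusted p below 0.05. In these bulk libraries fewer cells of a type and less RNA per cell cannot be told apart.

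The median log2 fold change of the 7 genes was 0.15, 0.28, 0.00 and 0.00 at 3, 6, 12 and 24 h, beside −0.14, −0.39, −0.05 and −0.03 over all tested genes. The share-adjusted medians over all tested genes were 0.05, 0.04, 0.04 and −0.02. The members are mostly well expressed, and genes of at least 5 CPM (12747) had medians of 0.18, 0.32, 0.07 and 0.00. At 6 h, Gata3 stood above 87.3% of those genes and Pax2 above 84.3%, whereas Pax8 (46.2%), Grhl2 (39.8%) and Tfcp2l1 (33.3%) stood below their middle. At 3 h, Gata3 (96.1%) and Pax2 (96.7%) were further out, although the test over all genes did not call them. These percentages are descriptions, with no test. The direction of calls over all genes at 6 h moved with the scaling, at 6203 higher and 5117 lower with TMM scaling, 3414 and 4494 with median-of-ratios size factors, 1489 and 3443 with no filter on low counts, and 722 and 1778 among genes of at least 5 CPM. At 3 h it was 139 higher and 5 lower, against 210 and 57 among genes of at least 5 CPM, and for the mean effect 4970 and 4884, against 5958 and 3592 by DESeq2. Markers of other cell types were also lower in dDAVP at 6 h, with 3 of 6 fibroblast, 3 of 6 immune, 2 of 5 endothelial, 2 of 4 tested thick limb and distal tubule and 1 of 8 tested proximal tubule markers called as lower and 2 of 5 podocyte markers as higher. None of these was called at 6 h in the share-adjusted model, which called 1 other of these markers, Lrp2 of the proximal tubule, as lower. At 3, 12 and 24 h and for the mean effect that model called 1 of the 2 podocyte markers as higher. Of 11 tested intercalated cell markers, it called 1 as higher at 3 h, 1 at 24 h and 1 for the mean effect. Their part in the results of the 7 genes was not tested. In the share-adjusted model none of the 7 was called at any time, for the mean effect or for dependence on time, beside 0.723%, 0.336%, 0.296% and 0.35% of all genes at 3, 6, 12 and 24 h, 1.22% for the mean effect and 0.256% for dependence on time. At an unadjusted p below 0.05 that model had 3 members at 3 h (Gata3, Pax2 and Pax8), 2 at 12 h (Pax2 and Grhl2), 2 for dependence on time (Gata3 and Pax2), and 0 at 6 h, at 24 h and for the mean effect. Of all 29743 tested genes it had 1998, 1826, 2178 and 2637 at 3, 6, 12 and 24 h. For the mean effect it had 2445 and for dependence on time 2102.

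**Figure D2:**
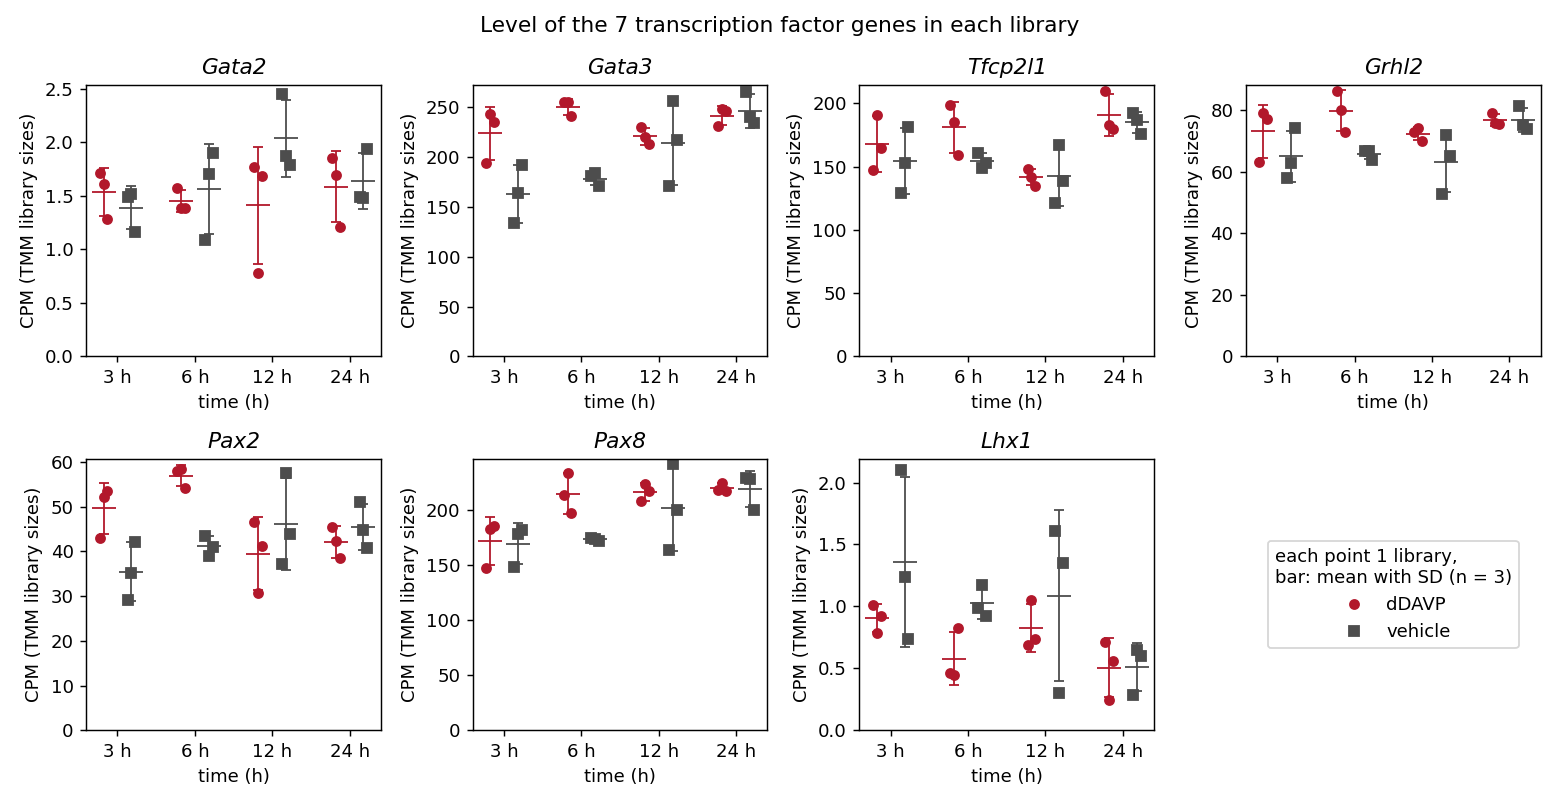
CPM of each gene (axes from 0) by time in hours, with each library as a point, dDAVP as red circles left of vehicle as grey squares, and bars for the mean and SD of 3 libraries. At 6 h the dDAVP and vehicle libraries do not overlap for Gata3, Pax2, Pax8 and Grhl2, all higher in dDAVP, as for 29.8% of all tested genes, and for Lhx1, lower in dDAVP, as for 33.2% of them; at 24 h all 7 genes overlap.

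Of the GATA genes, Gata3 carried the clearest difference. At 6 h it had 255, 255 and 241 CPM in dDAVP libraries, against 181, 184 and 171 CPM in vehicle libraries. The groups did not overlap, as for 29.8% of all genes in that direction. The log2 fold change was 0.49 ± 0.131 (SE, 95% interval 0.22 to 0.76, adjusted p = 0.0183). At 3 h it had 194, 243 and 235 CPM in dDAVP, against 134, 164 and 192 CPM in vehicle. These groups did not overlap either, as for 4.04% of all genes in that direction, with a lowest dDAVP library of 194 beside a highest vehicle library of 192, and the log2 difference of 0.45 ± 0.131 was not called (adjusted p = 0.195). At 12 h the groups overlapped, with 221 ± 8.75 CPM in dDAVP and 215 ± 42.5 CPM in vehicle (SD, n = 3), and at 24 h they had 242 ± 9.47 CPM in dDAVP and 247 ± 16.8 CPM in vehicle. The 95% interval at 24 h ran from −0.30 to 0.24 on the log2 scale. The mean effect was 0.24 ± 0.0653 (adjusted p = 0.0203), or −0.02 on the log2(TPM + 1) scale.

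The mean effect's call was lost without dDAVP 3 h replicate 3, dDAVP 6 h replicate 1 or 2, any dDAVP library at 12 h, dDAVP 24 h replicate 2 or vehicle 24 h replicate 3 (adjusted p = 0.05 to 0.0737). The call at 6 h was lost without vehicle 6 h replicate 1, 2 or 3 or dDAVP 6 h replicate 1 or 2 (adjusted p = 0.0619 to 0.139), and in the share-adjusted model the difference was 0.14 ± 0.0964 (adjusted p = 0.915). With only genes of at least 5 CPM, which centres the libraries on abundant genes, Gata3 was called at 3 h (0.29, adjusted p = 0.0146) and at 6 h (0.18, adjusted p = 0.0495).

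Gata2, the factor tied to Aqp2 and Avpr2 in the mouse duct, stayed between 0.777 and 2.45 CPM in all 24 libraries. It averaged 1.54, 1.45, 1.41 and 1.59 CPM in dDAVP at 3, 6, 12 and 24 h, and 1.39, 1.56, 2.04 and 1.63 CPM in vehicle. At 12 h it had 1.77, 0.777 and 1.68 CPM in dDAVP, against 2.45, 1.87 and 1.79 CPM in vehicle. The dDAVP libraries were all lower there, as for 2.24% of all genes, but the log2 difference of −0.54 ± 0.3 was not called (adjusted p = 0.917). The intervals at the other times were wide, from −0.67 to 0.58 at 24 h, at 17 to 61 counts per library. Aqp2 meanwhile differed by log2 4.38, 5.29, 4.31 and 5.35 at the 4 times, while Gata2 differed by 0.15, −0.11, −0.54 and −0.04.

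Of the CP2 and grainyhead genes, Grhl2 showed a small difference in its mean effect and Tfcp2l1 none that was called. At 6 h Grhl2 had 86.4, 80.2 and 73.0 CPM in dDAVP, against 66.9, 66.9 and 64.0 CPM in vehicle. The groups did not overlap, as for 29.8% of all genes in that direction, and the log2 difference of 0.28 ± 0.113 just missed the threshold (adjusted p = 0.0548). On TPM scales it was called as lower at 6 h, the other sign (limma, −0.29 with adjusted p = 0.0496 on log2(TPM + 1), −0.31 with adjusted p = 0.0386 on log2(TPM + 0.1)). The mean effect of 0.16 ± 0.0565 passed (adjusted p = 0.0369; −0.11 on the log2(TPM + 1) scale), with averages of 73.1, 79.9, 72.4 and 76.9 CPM in dDAVP and 65.1, 66.0, 63.4 and 76.8 CPM in vehicle at 3, 6, 12 and 24 h. Its share-adjusted value was 0.04 ± 0.0438 (adjusted p = 0.893), and leaving out any of 19 of the 24 libraries lost the call, all but dDAVP 3 h replicate 1, dDAVP 6 h replicate 3, vehicle 3 h replicate 3, vehicle 12 h replicate 2 and vehicle 24 h replicate 1, with adjusted p from 0.0538 to 0.145.

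Tfcp2l1 averaged 168, 181, 142 and 191 CPM in dDAVP and 154, 154, 142 and 185 CPM in vehicle at 3, 6, 12 and 24 h. The libraries of the treatments overlapped at all 4 times. Both treatments were lowest at 12 h, with 148, 142 and 135 CPM in dDAVP and 121, 167 and 139 CPM in vehicle, a description with no test. At 24 h the 95% interval of the log2 difference was −0.22 to 0.31.

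Of the PAX genes, Pax2 was called as higher at 6 h and Pax8, although higher in all dDAVP libraries then, was not called. At 6 h Pax2 had 58.0, 58.5 and 54.2 CPM in dDAVP, against 43.5, 39.0 and 41.0 CPM in vehicle. The groups did not overlap, as for 29.8% of all genes in that direction. The log2 fold change was 0.47 ± 0.155 (95% interval 0.15 to 0.79, adjusted p = 0.0278). At 3 h it had 43.1, 52.3 and 53.6 CPM in dDAVP, against 29.1, 35.2 and 42.2 CPM in vehicle. These groups did not overlap, as for 4.04% of all genes in that direction, and Pax2 was not called (0.48 ± 0.155, adjusted p = 0.305). At 12 h the sign was the other way, at 39.5 ± 8.13 CPM in dDAVP and 46.2 ± 10.3 CPM in vehicle, and at 24 h it had 42.1 ± 3.47 CPM in dDAVP and 45.5 ± 5.18 CPM in vehicle (SD, n = 3), with overlap at both times. The difference between times was not called (edgeR, adjusted p = 0.24).

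The call of Pax2 at 6 h was lost without any 1 of 15 of the 24 libraries: all 6 at 6 h, dDAVP 3 h replicate 3, the 3 dDAVP libraries at 12 h and at 24 h, and vehicle 24 h replicates 2 and 3 (adjusted p = 0.0541 to 0.183). It was 0.05 ± 0.133 in the share-adjusted model (adjusted p = 0.988) and 0.16 among genes of at least 5 CPM (adjusted p = 0.306).

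Pax8, the most abundant of the 7, had 214, 234 and 197 CPM in dDAVP at 6 h, against 175, 174 and 172 CPM in vehicle. All dDAVP libraries were higher, as for 29.8% of all genes. The log2 difference of 0.31 ± 0.123 was just outside the threshold (adjusted p = 0.0513). It was called without vehicle 3 h replicate 1, dDAVP 3 h replicate 1 or vehicle 12 h replicate 1 (adjusted p = 0.0264 to 0.0442). On TPM scales Pax8 was called as lower at 6 h, the other sign (limma, −0.23 with adjusted p = 0.0398 on log2(TPM + 1), −0.24 with adjusted p = 0.0294 on log2(TPM + 0.1)). At the other times its means lay close together, at 172 ± 21.6 CPM in dDAVP and 170 ± 18.8 CPM in vehicle at 3 h, 216 ± 8.31 CPM in dDAVP and 202 ± 38.9 CPM in vehicle at 12 h, and 220 ± 4.59 CPM in dDAVP and 219 ± 16.2 CPM in vehicle at 24 h (SD, n = 3). At 24 h the 95% interval was −0.25 to 0.26. The share-adjusted difference was −0.16 ± 0.0633 at 3 h (adjusted p = 0.556) and −0.06 ± 0.0763 at 6 h (adjusted p = 0.978), and with the 5 CPM filter as well it was called as lower at 3 h (−0.20, adjusted p = 0.0293).

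Lhx1, the LIM-homeodomain gene, was lower in all dDAVP libraries at 6 h but was not called. It had 0.466, 0.444 and 0.825 CPM in dDAVP, from 8 to 19 counts, against 0.987, 1.17 and 0.925 CPM in vehicle, from 19 to 24 counts. The groups did not overlap, as for 33.2% of all genes in that direction, and the log2 difference was −0.81 ± 0.491 (adjusted p = 0.169). At 24 h it had 0.713, 0.242 and 0.56 CPM in dDAVP and 0.288, 0.646 and 0.599 CPM in vehicle, with a 95% interval of −1.07 to 1.08. The share-adjusted difference at 6 h was 0.61 ± 0.391, of the other sign.

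**Figure D3:**
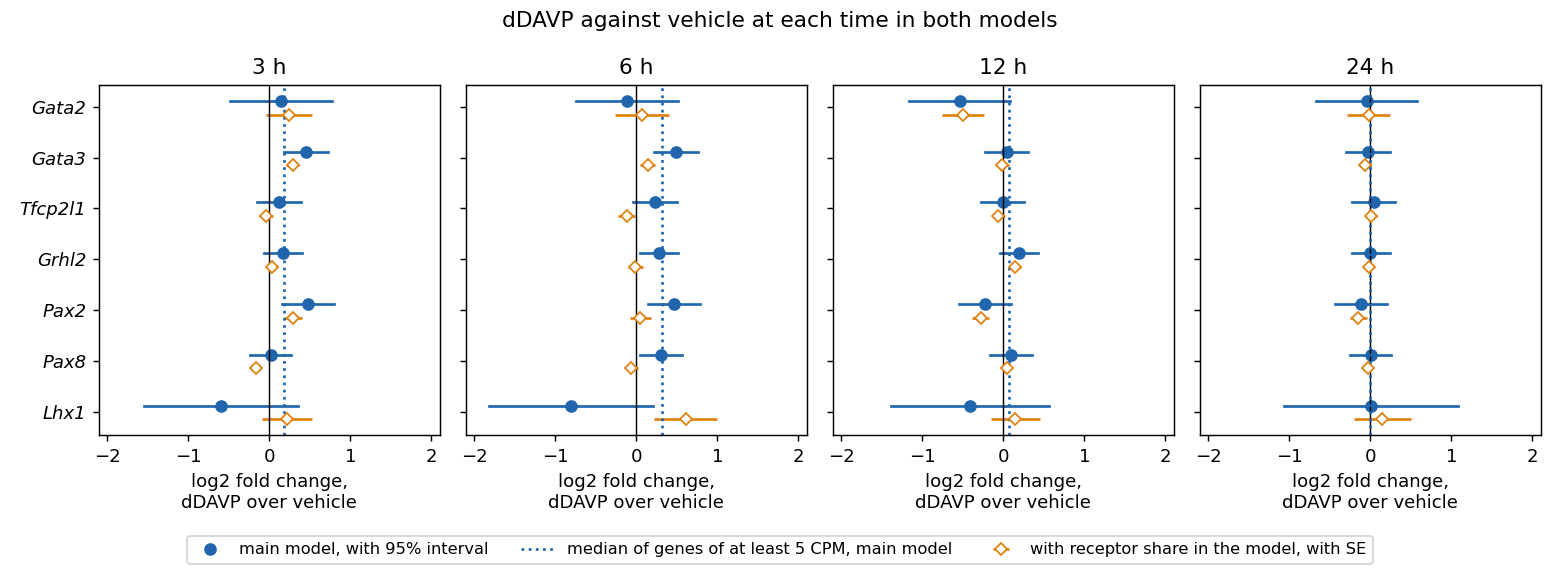
Log2 fold change of dDAVP over vehicle at 3, 6, 12 and 24 h for the 7 genes, from the main model (blue circles, bars the 95% interval) and in the share-adjusted model (orange diamonds, bars the SE), with a dotted line at the main model's median of genes of at least 5 CPM (0.18, 0.32, 0.07 and 0.00). At 6 h the blue points of Gata3 and Pax2 (0.49 and 0.47) lie right of the dotted line and the orange points of all but Lhx1 lie within 0.14 of 0.

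On the CPM scale, levels followed the receptor share in 6 of the 7 genes, and for 4 of them it did not pass on the same scale without the TMM factor. How many of all tested genes pass the same test was not counted, so the 6 cannot be set apart from genes in general. Across the 24 libraries log2 CPM went against the log2 share for Gata3 (Pearson r = −0.892, Spearman rho = −0.927), Pax8 (−0.86 and −0.864) and Grhl2 (−0.852 and −0.837), each with permutation p = 1e-05 for r and rho, the smallest that 100000 permutations can give, and adjusted p = 1.8e-05 over 7 relations. Tfcp2l1 (r = −0.773, rho = −0.764, permutation p = 2e-05 and 3e-05, adjusted p = 2.8e-05) and Pax2 (r = −0.66, rho = −0.664, permutation p = 0.00047 and 0.00042, adjusted p = 0.00055) went the same way. Lhx1 went with the share (r and rho = 0.907, permutation p = 1e-05, adjusted p = 1.8e-05). Gata2 showed no relation that passed (r = 0.08, rho = 0.096, permutation p = 0.71 and 0.65, adjusted p = 0.71). When the 2 libraries with shares farthest from the median were left out, r was −0.877 for Gata3, −0.817 for Pax8, −0.82 for Grhl2, −0.736 for Tfcp2l1, −0.516 for Pax2, 0.889 for Lhx1 and 0.073 for Gata2.

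The TMM factor itself ran with the share (r = 0.97, rho = 0.977, permutation p = 1e-05 for both, r = 0.963 without those 2 libraries). It was 0.814 in dDAVP 6 h replicate 2, at a share of 0.135%, and 1.326 in vehicle 3 h replicate 1, at 0.901%. The relation was therefore also computed, after the values had been seen, for CPM without this factor and for TPM, which with the factor itself made 15 relations. Without the factor Lhx1 kept its relation (r = 0.937, rho = 0.947, permutation p = 1e-05 for both, adjusted p = 5e-05), and Gata3 had a weaker one (r = −0.523, rho = −0.443, permutation p = 0.0087 and 0.032, adjusted p = 0.022). Pax8 (r = −0.088, rho = −0.087), Grhl2 (0.319 and 0.355), Tfcp2l1 (0.017 and 0.03) and Pax2 (−0.06 and −0.139) had none that passed. Their permutation p was 0.68, 0.13, 0.94 and 0.78 for r and 0.68, 0.089, 0.89 and 0.52 for rho (adjusted p = 0.78, 0.2, 0.94 and 0.84). Gata2 went with the share on this scale (r = 0.481, rho = 0.508, permutation p = 0.016 and 0.012, adjusted p = 0.034). Left without the 2 libraries of farthest share, r on this scale was 0.923 for Lhx1, −0.485 for Gata3 and 0.403 for Gata2.

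On TPM, which Gm24245 shifts between libraries, Grhl2 went with the share rather than against it (r = 0.668, rho = 0.601, permutation p = 0.00035 and 0.0025, adjusted p = 0.0013). The same held for Tfcp2l1 (r = 0.459, rho = 0.488, permutation p = 0.024 and 0.017, adjusted p = 0.045), Gata2 (r = 0.589, rho = 0.547, permutation p = 0.0026 and 0.0061, adjusted p = 0.0078) and Lhx1 (r = 0.819, rho = 0.872, permutation p = 1e-05 for both, adjusted p = 5e-05). Grhl2 averaged 8.89 ± 1.08 TPM in dDAVP at 6 h and 12.8 ± 1.32 TPM in vehicle at 3 h (SD, n = 3). Pax8 averaged 43.3 ± 2.51 TPM in dDAVP at 6 h and 57.1 ± 3.16 TPM in vehicle at 3 h (SD, n = 3). Gata3 (r = 0.214, rho = 0.158, permutation p = 0.31 and 0.46, adjusted p = 0.39), Pax2 (0.302 and 0.254, p = 0.15 and 0.23, adjusted p = 0.2) and Pax8 (0.363 and 0.383, p = 0.082 and 0.066, adjusted p = 0.14) had no relation on TPM that passed. Without the 2 libraries r on TPM was 0.508 for Grhl2, 0.337 for Tfcp2l1, 0.519 for Gata2 and 0.807 for Lhx1. Which scale gives the level per cell was not measured. Permutation ran across groups, and the share itself differed between groups, so this relation and the treatment cannot be told apart where the shares do not overlap.

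**Figure D4:**
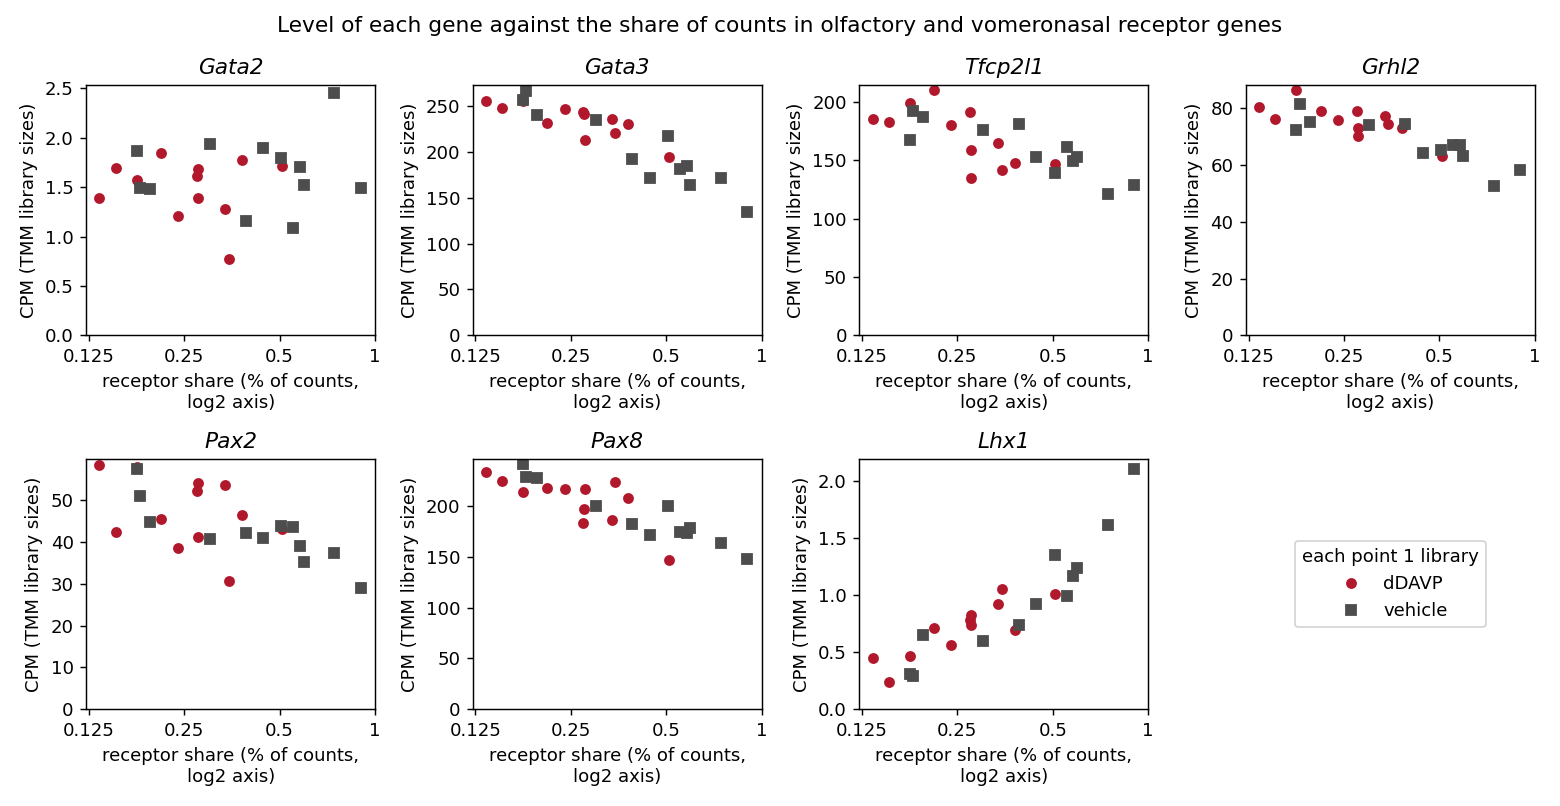
CPM of each gene (axes from 0) against the share of a library's counts in olfactory and vomeronasal receptor genes (percent, log2 axis), with each library as a point and dDAVP as red circles, vehicle as grey squares. Gata3, Pax8, Grhl2, Tfcp2l1 and Pax2 are lower in libraries of high share, Lhx1 is higher in them (r = 0.907), and Gata2 shows no slope (r = 0.08); CPM here includes the TMM factor, which itself ran with the share (r = 0.97).

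A ratio of 2 genes within a library is free of the scaling between libraries, and Pax8 and Gata3, the upper tier, were set against each other in this way after their values had been seen. The log2 ratio of counts of Pax8 over Gata3 at 3 h was −0.40, −0.41 and −0.34 in dDAVP, against 0.14, 0.12 and −0.08 in vehicle. At 6 h it was −0.25, −0.13 and −0.29 in dDAVP, against −0.04, −0.08 and 0.01 in vehicle. All dDAVP libraries were lower at both times. At 12 h the ratio averaged −0.03 ± 0.1 in dDAVP and −0.09 ± 0.03 in vehicle, and at 24 h −0.13 ± 0.05 in dDAVP and −0.17 ± 0.09 in vehicle (SD, n = 3), with overlap at both. Pax2 over Gata3 hardly differed at 3 h, at −2.17 ± 0.04 in dDAVP and −2.21 ± 0.02 in vehicle, or at 6 h, at −2.14 ± 0.02 in dDAVP and −2.12 ± 0.1 in vehicle. At 12 h it was −2.51 ± 0.29 in dDAVP and −2.22 ± 0.08 in vehicle, and at 24 h −2.52 ± 0.17 in dDAVP and −2.44 ± 0.07 in vehicle. Pax2 over Pax8 was −1.79 ± 0.02 in dDAVP and −2.27 ± 0.14 in vehicle at 3 h, and −1.92 ± 0.07 in dDAVP and −2.08 ± 0.08 in vehicle at 6 h. At 12 h it was −2.47 ± 0.36 in dDAVP and −2.13 ± 0.06 in vehicle, and at 24 h −2.39 ± 0.12 in dDAVP and −2.27 ± 0.09 in vehicle, lower in dDAVP on average where it had been higher at 3 h and 6 h. These ratios were chosen after the values were seen and are a description, with no test.

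**Figure D5:**
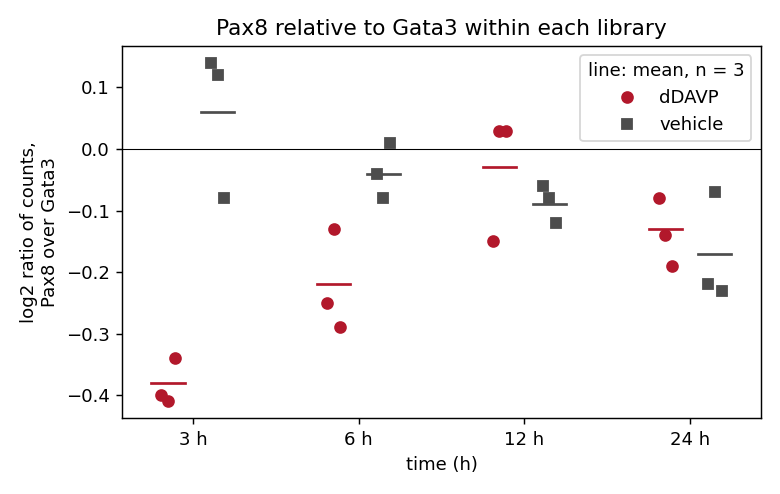
Log2 ratio of estimated counts of Pax8 over Gata3 within each library by time in hours, with dDAVP as red circles left of vehicle as grey squares and lines at the means of 3 libraries. The dDAVP libraries at 3 h sit between −0.41 and −0.34, below all vehicle libraries at 3 h, and the treatments meet at 12 and 24 h.

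Within the vehicle groups, 3 of the 7 genes differed between 24 h and 3 h, against 38.0% of all genes, 18.4% as higher and 19.7% as lower (5460 higher and 5852 lower, or 6271 and 4429 by DESeq2). Gata3 rose, with 266, 240 and 234 CPM at 24 h and 134, 164 and 192 CPM at 3 h (log2 0.59 ± 0.131, adjusted p = 0.00591). Pax8 rose, with 229, 228 and 200 CPM at 24 h and 148, 178 and 182 CPM at 3 h (0.37 ± 0.123, adjusted p = 0.0263, or −0.05 on the log2(TPM + 1) scale). Lhx1 fell, with 0.288, 0.646 and 0.599 CPM at 24 h and 2.1, 1.24 and 0.74 CPM at 3 h (−1.41 ± 0.487, adjusted p = 0.0299). None of the 3 pairs of groups overlapped, as for 22.4% of all genes higher and 30.1% lower. The receptor share averaged 0.226% ± 0.0656 in vehicle at 24 h and 0.629% ± 0.257 at 3 h, and with it in the model the differences were 0.26, 0.02 and 0.13, none called (0.699% of all genes were). Markers of other cell types were called between these groups too, as lower at 24 h for 4 of 6 fibroblast, 4 of 5 endothelial, 2 of 6 immune, 2 of 4 tested thick limb and distal tubule and 2 of 8 tested proximal tubule markers, and as higher for 2 of 5 podocyte markers and 1 proximal tubule marker. None of these was called in the share-adjusted model, and their part in the results of the 3 genes was not tested. Of the duct's own markers, 4 of 11 for principal and 2 of 11 tested for intercalated cells were higher at 24 h. Vehicle 3 h replicate 1, the library of highest share (0.901%), weighed on all 3: without it the adjusted p was 0.0687 for Gata3, 0.164 for Pax8 and 0.224 for Lhx1. Pax8 also lost its call without vehicle 24 h replicate 1 (adjusted p = 0.098) or 2 (0.0956), and Lhx1 without vehicle 3 h replicate 2 (0.0557) or vehicle 24 h replicate 1 (0.135) or 2 (0.0684).

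Within the dDAVP groups no member was called between 24 h and 3 h by edgeR, against 1.3% of all genes (299 higher and 87 lower, or 1184 and 656 among genes of at least 5 CPM). DESeq2 also called 0 members (316 genes higher and 212 lower in all). By edgeR 1 member had an unadjusted p below 0.05, beside 6651 of all 29743 tested genes. Lhx1 had 0.713, 0.242 and 0.56 CPM at 24 h and 1.01, 0.783 and 0.925 CPM at 3 h, without overlap, as for 19.5% of all genes lower (−0.81 ± 0.504, adjusted p = 0.317). Pax8 had 218, 225 and 217 CPM at 24 h and 147, 183 and 186 CPM at 3 h, without overlap, as for 12.2% of all genes higher (0.36 ± 0.123, adjusted p = 0.129, or 0.0339 without vehicle 12 h replicate 2). Pax2 had 45.5, 42.3 and 38.5 CPM at 24 h and 43.1, 52.3 and 53.6 CPM at 3 h (−0.24 ± 0.155, adjusted p = 0.335). Pax2 in the share-adjusted model fell by 0.48 on the log2 scale (SE 0.115, adjusted p = 0.0161), the single member among the 3.98% of genes called there (2.61% as lower), and by 0.35 among genes of at least 5 CPM (adjusted p = 0.0411). In the same groups Aqp2 was higher at 24 h, with 222, 214 and 235 CPM, than at 3 h, with 110, 126 and 122 CPM.

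Calls among relatives, partners and linked genes of these factors fell mostly at 6 h, as they did over all tested genes. Of those, 0.484%, 38.1%, 0.0773% and 0.0841% were called at 3, 6, 12 and 24 h. Of 104 genes on 4 kinds of list (relatives, cofactors, other kidney transcription factors and genes linked to the factors), 100 were tested, and 31 were higher and 15 lower at 6 h, 46 of 100 beside 38.1% of all genes. At 3, 12 and 24 h the single gene called was Aqp2. In the share-adjusted model 1 of the 100, Aqp2, was called at 6 h. The 46 calls at 6 h fell to 1 or 2 without vehicle 6 h replicate 1 or 2 or dDAVP 6 h replicate 1 or 2, to 21 without vehicle 6 h replicate 3 and to 29 without vehicle 24 h replicate 2.

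Of 26 relatives tested, 1 was higher at 6 h, the CP2-family gene Ubp1 (5.23 TPM, named after its value was seen), and 8 were lower, with a median log2 difference of −0.80. Over all 29743 tested genes 6203 were higher and 5117 lower at 6 h, with a median of −0.39. The relatives with the smallest p for the mean effect were scarce. Trps1, an atypical GATA factor, had 0.322 TPM and a log2 difference of −1.0 at 6 h (adjusted p = 0.0411), Lhx5 0.268 TPM and −1.81 (adjusted p = 0.0204), Lhx4 0.357 TPM and −0.75 (adjusted p = 0.0674), and Lmx1a 0.164 TPM and −0.93 (adjusted p = 0.102). The most abundant relatives were Gata4 at 0.861 TPM for the GATA genes, Tfcp2 at 13.3 TPM for the CP2 genes, Grhl1 at 2.34 TPM for the grainyhead genes, Pax6 at 1.45 TPM for the PAX genes and Isl2 at 1.68 TPM for the LIM-homeodomain genes. Gata3, Grhl2 and Pax8 (52.1 TPM) were thus the most abundant of their families on average, with Pax2 (8.39 TPM) below Pax8 and above Pax6. Tfcp2 lay above Tfcp2l1 (11.1 TPM), Gata4 above Gata2 (0.411 TPM) and Isl2 above Lhx1 (0.311 TPM). Pax6 was lower at 6 h (−0.89, adjusted p = 0.0389), and the other 4 were not called there. None of the 26 was called at 6 h in the share-adjusted model.

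Of 14 cofactors, 7 were higher and 1 lower at 6 h (median log2 0.39). Ssbp4 and Ssbp2, proteins that bind the LIM-domain cofactor LDB1, had opposite signs, with 70.4 TPM and a log2 difference of 0.50 (adjusted p = 0.0178) for Ssbp4 and 23.5 TPM and −0.43 (adjusted p = 0.019) for Ssbp2. Lmo4, a LIM-only protein, had 56.0 TPM and 0.45 (adjusted p = 0.0201). Of 29 other kidney transcription factors tested, 10 were higher and 3 lower at 6 h (median −0.05). Beside both lists stand 6203 higher and 5117 lower of all 29743 tested genes, with a median of −0.39. Genes of at least 5 CPM had a median of 0.32, and the cofactor median lay near theirs. Hoxb7, a homeobox gene of the ureteric lineage, had 35.1 TPM and 0.51 (adjusted p = 0.0187), the AP-2 gene Tfap2a 6.39 TPM and 0.61 (adjusted p = 0.015), and the forkhead gene Foxc1 1.35 TPM and 0.76 (adjusted p = 0.0154). None of these was called at 6 h in the share-adjusted model.

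Elf3, an ETS factor of epithelia at 78.0 TPM, was one of these factors and was also called at 3 h in the share-adjusted model. At 3 h it had 216, 283 and 282 CPM in dDAVP, against 152, 191 and 196 CPM in vehicle. There was no overlap, as for 4.04% of all genes in that direction (log2 0.53 ± 0.129, adjusted p = 0.0614). With the share in the model it was called there (0.36 ± 0.0714, adjusted p = 0.00682). Its mean effect was called in both models, at 0.36 ± 0.0641 (adjusted p = 0.0011) and 0.21 ± 0.0411 (adjusted p = 0.00456).

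Of 11 genes linked to GRHL2, the junction and trafficking genes of this factor, 9 were higher and none lower at 6 h, where 20.9% of all genes were called as higher, with a median log2 difference of 0.40 beside 0.32 for all genes of at least 5 CPM. Rab25, a GTPase of apical recycling, had 138 TPM and 0.57 (adjusted p = 0.0162), and Tjp1, the tight junction protein ZO-1, 7.51 TPM and 0.32 (adjusted p = 0.0462). Of the epithelial splicing factors, Esrp2 had 18 TPM and 0.49 (adjusted p = 0.0155) and Esrp1 10.9 TPM and 0.40 (adjusted p = 0.0217). None of the 11 was called in the share-adjusted model.

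Of 10 genes linked to PAX2 and PAX8, Aqp2 and Cdh16 (kidney cadherin, 221 TPM, 0.38, adjusted p = 0.0336) were higher at 6 h, and Ret and the urea transporter Slc14a1 lower. At that time 38.1% of all tested genes were called. Ret, the receptor of the branching ureteric bud and on the GATA list too, had 0.104 TPM and Slc14a1 0.121 TPM, with log2 differences of −1.69 and −1.91. Of the other genes linked to GATA factors, Avpr2 had 23.7, 25 and 28.3 CPM in dDAVP at 3 h, against 27.8, 34.1 and 36.1 CPM in vehicle (−0.35 ± 0.13, adjusted p = 0.365), and was called as lower in the share-adjusted model (−0.52 ± 0.0839, adjusted p = 0.00059). At 24 h it had 64.4, 66.1 and 59.5 CPM in dDAVP and 65.6, 57.3 and 51.0 CPM in vehicle.

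Of 9 genes linked to TFCP2L1, Aqp2, Car2 (carbonic anhydrase, 75.6 TPM, 0.38, adjusted p = 0.0315) and Notch1 (10.7 TPM, 0.34, adjusted p = 0.0316) were higher and Slc4a1 (the anion exchanger of acid-secreting cells, 0.543 TPM, −1.53, adjusted p = 0.0224) lower at 6 h. Again, 38.1% of all tested genes were called then. Jag1, the Notch ligand linked to TFCP2L1 in the mouse duct, differed in sign between times. At 6 h it had 36.9, 36.8 and 38.5 CPM in dDAVP, against 30.0, 22.9 and 21.8 CPM in vehicle. At 12 h it had 17.2, 17.6 and 23.9 CPM in dDAVP, against 31.7, 43.9 and 32.3 CPM in vehicle, and at 24 h 36.1, 24.9 and 15 CPM in dDAVP, against 47.8, 43.4 and 47.0 CPM in vehicle. The groups did not overlap at any of these times, higher in dDAVP at 6 h, as for 29.8% of all genes, and lower at 12 h and 24 h, as for 2.24% and 5.92%. The log2 differences of 0.59 ± 0.251, −0.88 ± 0.253 and −0.86 ± 0.251 were not called (adjusted p = 0.0626, 0.715 and 0.786), and in the share-adjusted model those at 12 h (−0.97 ± 0.216, adjusted p = 0.0483) and 24 h (−0.92 ± 0.209, adjusted p = 0.0499) were, while that at 6 h was 0.11 ± 0.269 (adjusted p = 0.987). Tfcp2l1 itself differed by 0.00 and 0.05 at those times.

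The genes whose log2 CPM ran most like each member over the 24 libraries, by Pearson r among at least 10891 genes, were Sema4d (0.959), Nop53 (0.958) and Ak3 (0.958) for Gata3, Prkcz (0.963), Fam83d (0.962) and Ift52 (0.962) for Pax8, and Supt20 (0.962), Mob1a (0.96) and Togaram1 (0.956) for Grhl2. Those of Tfcp2l1 were Iqgap1 (0.954), Slc38a2 (0.952) and Ankib1 (0.949), and those of Pax2 Igfbp7 (0.909), Grb2 (0.906) and Ube2r2 (0.902). For Lhx1 they were Cracr2a (0.947) and the receptor genes Vmn2r3 (0.942) and Olfr731 (0.94), and for Gata2 Mast1 (0.568), Crtc3 (0.516) and Lrp5 (0.498). Among the members, Gata3 ran with Grhl2 (0.844) and Pax8 (0.82) and against Lhx1 (−0.809), Tfcp2l1 ran with Grhl2 (0.848), and Gata2 ran with none of them beyond −0.344 to 0.16. These are descriptions over libraries that differed in depth (17.25 to 27.64 M) and in receptor share (0.135% to 0.901%).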

How the data were processed

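RNA was sequenced from 24 libraries of mpkCCD cells, made with the SMART-Seq HT kit and Nextera tagmentation, per the labels' protocols. Estimated counts and TPM per gene were made and deposited by the authors in tables of the whole series. Salmon 0.14.10 and GRCm38.p6 are named per the submitters' processing notes. The way transcripts were summed to genes is not given in the sources used here. Each of the 24 sample columns was matched by name, and 86 gene IDs had no name in the annotation.

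Counts were rounded to whole numbers and tested with edgeR 4.0.16 (R 4.3.3): TMM scaling (factors 0.814 to 1.326), filterByExpr over the 8 groups (29743 of 54432 genes kept, all 7 members among them), the quasi-likelihood F test with 1 mean per group fitted on all 24 libraries, and Benjamini-Hochberg adjustment over all tested genes at 0.05. Depth was 17.25 to 27.64 M counts per library, and the common dispersion was 0.0366. CPM uses TMM library sizes and compares libraries, and TPM compares genes within a library. DESeq2 1.42.0, limma 3.58.1 on log2(TPM + 1) and log2(TPM + 0.1), median-of-ratios size factors (RLE), other filters, a replicate block, the receptor share as a covariate and leaving out each library were alternatives. The test was tried on simulated counts. Correlations used permutation tests (scipy 1.17.1), and figures matplotlib 3.10.9. Replicates of a group differed by more than sampling noise, so none was counted as a repeat deposit.

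The 7 genes, the gene lists and the receptor share were chosen with earlier results of these data known. Besides the members, Aqp2 and Avpr2, the text names up to 4 genes of each list with the smallest p for the mean effect, each gene called where a list has 4 or fewer, the most abundant relative of each family, and the 3 genes most correlated with each member. Other genes named were chosen after their values were seen. 1 gene that this rule names is not reported here.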

Additional observations from a re-analysis of the deposited data

Results flagged for a closer look

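The dDAVP effect on Aqp2, the water channel gene linked to GATA factors, PAX factors and TFCP2L1, depended on time in the edgeR test of treatment by time (adjusted p = 0.03). Aqp2 was higher in dDAVP by 4.38 ± 0.165, 5.29 ± 0.172, 4.31 ± 0.164 and 5.35 ± 0.171 on the log2 scale at 3, 6, 12 and 24 h (SE). No member's effect depended on time past the same threshold.

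Jag1, the Notch ligand linked to TFCP2L1, had all dDAVP libraries above all vehicle libraries at 6 h, as for 29.8% of all genes. They were all below them at 12 h and 24 h, as for 2.24% and 5.92%. Averages at 6 h were 37.4 ± 0.951 CPM in dDAVP and 24.9 ± 4.47 CPM in vehicle, and at 24 h 25.3 ± 10.6 CPM in dDAVP and 46.1 ± 2.31 CPM in vehicle (SD, n = 3 each). The edgeR test of dependence on time across all genes gave adjusted p = 0.077 (unadjusted 0.000501), so the difference between times was not called. The adjusted p was 0.241 in the share-adjusted model. Its cause was not tested.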

How the results depend on the processing

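The alternatives were applied to 36 log2 fold changes of members and 12 counts, and no cause was tested. Leaving out 1 library kept a fold change the same in 762 cases, reversed it in 40, lost its call in 55 and gained one in 7. Other settings kept it the same in 221 cases, reversed it in 80, lost its call in 25 and gained one in 14. Counts moved in 53 cases and held in 235 when 1 library was left out. In other settings they moved in 41 cases and held in 79. 2 alternatives, without the 2 libraries of highest receptor share and the receptor share with a 5 CPM filter, were chosen after seeing the data. Leaving out 1 library turned signs at 3 h within ranges of −0.01 to 0.23 for Gata2 and −0.08 to 0.13 for Pax8. At 12 h it did so for Gata3 (−0.10 to 0.23), Tfcp2l1 (−0.11 to 0.18), Pax2 (−0.38 to 0.01), Pax8 (−0.03 to 0.29) and Lhx1 (−0.79 to 0.01). At 24 h it did so for Gata2 (−0.18 to 0.14), Gata3 (−0.05 to 0.03), Tfcp2l1 (−0.03 to 0.10), Pax8 (−0.04 to 0.04), Grhl2 (−0.02 to 0.04) and Lhx1 (−0.31 to 0.33). Members called ranged from 0 to 4 at 6 h, 0 to 5 for the mean effect, 0 to 1 for dDAVP at 24 h against 3 h and 0 to 6 for vehicle at 24 h against 3 h, and pathway genes called from 1 to 3 at 3 h and 1 to 54 at 6 h.

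Other settings turned the sign of these log2 fold changes. With log2(TPM + 1) they were, at 3 h, Gata2 −0.28, Tfcp2l1 −0.06, Pax8 −0.29 and Grhl2 −0.26, and at 6 h, Gata3 −0.07, Tfcp2l1 −0.28, Pax2 −0.09, Pax8 −0.23 and Grhl2 −0.29. They were at 12 h Gata3 −0.06 and Pax8 0.00, at 24 h Pax8 −0.10, Grhl2 −0.02 and Lhx1 −0.05, for the mean effect Gata3 −0.02 and Grhl2 −0.11, and in vehicle over time Pax8 −0.05. With log2(TPM + 0.1) the values that differed from these were, at 3 h, Gata2 −0.72 and Grhl2 −0.28, at 6 h Tfcp2l1 −0.30, Pax2 −0.10, Pax8 −0.24 and Grhl2 −0.31, at 24 h Lhx1 −0.28, and for the mean effect Grhl2 −0.12. Of these, limma called Pax8 and Grhl2 as lower at 6 h on both TPM scales (adjusted p = 0.0398 and 0.0496 with log2(TPM + 1), 0.0294 and 0.0386 with log2(TPM + 0.1)), as it did Gata2. With the 5 CPM filter they were, at 3 h, Tfcp2l1 −0.05, Pax8 −0.16 and Grhl2 0.00, at 6 h Tfcp2l1 −0.08, Pax8 0.00 and Grhl2 −0.03, and at 24 h Pax8 −0.01 and Grhl2 −0.01. With the receptor share they were, at 3 h, Tfcp2l1 −0.04, Pax8 −0.16 and Lhx1 0.22, at 6 h Gata2 0.07, Tfcp2l1 −0.12, Pax8 −0.06, Grhl2 −0.01 and Lhx1 0.61, at 12 h Gata3 −0.01 and Lhx1 0.15, at 24 h Pax8 −0.03 and Grhl2 −0.02, and Lhx1 0.06 and 0.13 over time in dDAVP and vehicle. With the share and the 5 CPM filter they were, at 3 h, Tfcp2l1 −0.08, Pax8 −0.20 and Grhl2 −0.01, at 6 h Tfcp2l1 −0.15, Pax8 −0.09 and Grhl2 −0.05, at 12 h Gata3 −0.01, and at 24 h Pax8 −0.01 and Grhl2 −0.01. Without the 2 libraries of highest share they were Pax8 −0.07 at 3 h, and Gata3 −0.10, Pax8 −0.04 and Lhx1 0.00 at 12 h. At 12 h Tfcp2l1 was 0.04 with RLE, no filter and DESeq2 and 0.00 with the replicate block. At 24 h Gata2 was 0.01 with RLE and 0.00 with DESeq2, Gata3 0.02 with both, Pax8 and Grhl2 0.00 with no filter, and Lhx1 −0.04 with the replicate block.

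Counts moved by more than 1.5 times in these settings. Members called at 3 h (0) became 1 with the 5 CPM filter and 2 with the share and that filter. At 6 h (2) they became 1 with no filter or with the 5 CPM filter, 4 with the replicate block or without the 2 libraries, and 0 with the share, with or without the filter. For the mean effect (2) they became 1 with RLE, no filter or the 5 CPM filter, and 0 with the share, the share and filter, or without the 2 libraries. Dependence on time (0) became 1 without the 2 libraries. In dDAVP over time (0) they became 2 with the 5 CPM filter, alone or with the share, and 1 with the share or without the 2 libraries. In vehicle over time (3) they became 0 with the share and 1 with the 5 CPM filter, the share and filter, either TPM scale, or without the 2 libraries. Pathway genes called at 3 h (1) became 5 with the 5 CPM filter, alone or with the share, 3 with the share, and 2 with the block or either TPM scale. At 6 h (46) they became 28 with no filter, 14 with the 5 CPM filter, 1 with the share, alone or with the filter, 20 with log2(TPM + 1) and 29 with log2(TPM + 0.1). At 12 h (1) they became 2 with the share and 3 with the share and filter, and at 24 h (1) 2 with either.

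Replicate numbers did not pair the libraries: deviations of same-numbered dDAVP and vehicle libraries correlated between −0.437 and 0.613. With the replicate block Pax8 (0.30, adjusted p = 0.032) and Grhl2 (0.28, adjusted p = 0.0494) were called at 6 h. Gata2 and Lhx1, with at most 61 and 51 counts, were not tested under the 5 CPM filter, and their intervals limit what could be seen.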
